A study of Arabidopsis thaliana with 12 samples.

Results

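Chromatin carrying elongating RNA polymerase II was compared between estradiol-induced and mock-treated Arabidopsis thaliana seedlings, in 6 of the 12 libraries of the series: the 3 mock and 3 induced libraries made with an antibody against the serine 2 phosphorylated (S2P) polymerase. Members were chosen by the antibody and treatment named in the sample titles, and reads were counted over whole genes for 33323 nuclear genes. Every plant was of the Columbia ecotype, carried the tfIIs-1 insertion (SALK_056755) and was harvested as a seedling at 10 DAS (days after sowing). Mock plants received EtOH for 24 h. Induced plants received 2 mM b-estradiol for 24 h, and their labels name GFP-TFIIS (AT2G38560) as the inducibly expressed protein. The title of the series speaks instead of a mutated form, TFIISmut, so which protein these plants expressed cannot be settled from the labels. Both groups thus carried the insertion. Neither a wild type nor estradiol-treated plants without the transgene were among the 6 libraries, so effects of estradiol and of the transgene cannot be told apart. Input chromatin was not used here.

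During elongation the C-terminal tail of the largest polymerase subunit becomes phosphorylated on serine 2, and chromatin immunoprecipitation with an S2P antibody recovers DNA of genes that are being transcribed. TFIIS helps a backtracked polymerase resume by stimulating cleavage of the nascent transcript in the active site. Plants also adjust nuclear transcription when mitochondria are disturbed: membrane-bound NAC factors such as NAC13 and NAC017 are released and activate genes for alternative respiration, detoxification and chaperones, a route called mitochondrial retrograde signalling. Glutathione transferases, glycosyltransferases and MATE transporters are classical detoxification genes of plants.

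The 6 libraries differed widely in depth, from 159951 to 2537034 reads in nuclear genes, a ratio of 15.9. Levels below are CPM, a gene's reads scaled to a common total over the nuclear genes of that library. In S2P mock 1, S2P mock 2 and S2P induced 3, the shallow libraries, 3 reads equalled 18.8, 15.6 and 14.3 CPM, against 1.18 to 2.59 CPM in the other 3. Within the induced group S2P induced 2 stood apart. Over 18798 genes its log2 CPM correlated best with S2P mock 3 (r = 0.848) and less with S2P induced 1 (r = 0.780) and S2P induced 3 (r = 0.551), while S2P induced 1 and S2P induced 3 correlated at r = 0.812. These r values share genes and libraries and are descriptions. Depth differed between the pairs: S2P mock 3 and S2P induced 1 were deep, like S2P induced 2, while S2P induced 3 was shallow. The shallow S2P mock 1 and S2P mock 2 correlated at r = 0.636. Of the counted reads, 20.3% lay outside annotated genes in S2P induced 2, against 28.2% in S2P induced 1 and 33.4% in S2P induced 3; in mock libraries the share was 24.5% to 29.4%. Results are therefore given with all 6 libraries and, where it alters a call, without S2P induced 2.

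Seedling identity was examined with marker genes. The 5 shoot and photosynthesis markers together held 963, 375 and 433 CPM in mock 1 to 3 and 655, 292 and 561 CPM in induced 1 to 3. Thus the groups overlapped. The 10 root markers together held 381, 380 and 427 CPM in mock and 237, 266 and 280 CPM in induced libraries. These sums did not overlap, but their separation rested on PYK10 (AT3G09260), and the sums of the other root markers overlapped. PYK10 held 28, 19 and 539 reads in mock and 141, 124 and 5 reads in induced libraries, at unlike depths. In S2P induced 3, IRT1 (AT4G19690) held more, 17 reads. Of 7 tested root markers 1 had a positive log2 fold change. The part of any root difference in the results below was not tested. The endodermal root gene CASP1 had no read in S2P mock 1 and S2P induced 3, both shallow. The 20 seed, pollen and anther genes that should be silent in seedlings held 331, 380 and 283 CPM in mock and 254, 249 and 342 CPM in induced libraries. This level stands for background, since no seed or pollen tissue was sampled. In whole seedlings, fewer cells carrying polymerase on a gene and less polymerase per cell cannot be told apart.

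TFIIS itself, the gene of the transgene, held 18.8, 67.7 and 57.9 CPM in mock and 93.9, 125 and 61.8 CPM in induced libraries. S2P induced 3 lay between the mock values, so the groups overlapped. Its log2 fold change of 1.09 (SE 0.42) did not pass edgeR's quasi-likelihood test after Benjamini-Hochberg adjustment over all genes (adjusted p = 0.573). Over 19 alternative settings this adjusted p ran from 0.0952 to 0.999. At this depth TFIIS did not separate the induced libraries from mock.

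Across the genome, 3 of 18798 tested genes (0.016%) passed an adjusted p of 0.05, all of them with more S2P polymerase after induction, and none with less. An unadjusted p under 0.05 was reached by 976 genes on the higher side (5.19%) and 462 on the lower side (2.46%). The groups did not overlap for 641 genes with higher (3.41%) and 1750 genes with lower values (9.31%) in induced libraries. DESeq2 called 42 genes (0.223%), 41 of them higher. Leaving out S2P mock 1, S2P mock 2, S2P mock 3 or S2P induced 1 gave 0 calls in edgeR. In that order, an unadjusted p under 0.05 was reached by 1352 of 25292, 1292 of 24713, 351 of 7126 and 239 of 7202 tested genes. Leaving out S2P induced 3 gave 40 calls, all higher, and leaving out S2P induced 2 gave 525.

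AT2G04070, which the RefSeq table gives no symbol, lies in a run of neighbouring genes with DTX1 (detoxification 1), a MATE efflux transporter. It held 25.01, 15.6 and 19.7 CPM in mock and 176, 161 and 166 CPM in induced libraries. All 3 induced libraries stood together, S2P induced 2 included. The log2 fold change was 3.27 (SE 0.44; edgeR, adjusted p = 0.0472). In S2P mock 1 and S2P mock 2 the level rested on 4 and 3 reads, against 35 to 291 reads in the induced libraries. Reads shared with its near-identical neighbours are not visible in the files, so the split between these genes is uncertain.

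UGT74E2 (AT1G05680), a glycosyltransferase known to act on the auxin precursor indole-3-butyric acid, rose from 25.01, 15.6 and 17.7 CPM in mock to 113, 157 and 85.5 CPM. Its log2 fold change was 2.85 (SE 0.41; edgeR, adjusted p = 0.0472). SRO3 (AT1G70440), of the family of the stress protein RCD1, rose from 18.8, 15.6 and 11.8 CPM to 111, 75.2 and 85.5 CPM, with a log2 fold change of 2.94 (SE 0.43; edgeR, adjusted p = 0.0472). For each of these genes every induced library lay above every mock library. In S2P mock 1 and S2P mock 2, UGT74E2 rested on 4 and 3 reads and SRO3 on 3 and 3. In S2P induced 3, UGT74E2 and SRO3 held 18 reads each. The call of all 3 genes was lost in several alternatives: AT2G04070 passed in 11 of 19, UGT74E2 in 10 of 19 and SRO3 in 9 of the 18 that tested it. The lowest log2 fold change of any of them in an alternative was 2.31.

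Higher occupancy of the 3 genes was seen both near the start site and further into the gene. In the window the authors label TSS, AT2G04070 held 0, 21.9 and 31.5 CPM in mock and 132, 127 and 135 CPM in induced libraries, scaled to the reads of that window. In the gene body window it held 30.4, 19.5 and 17.5 against 191, 175 and 188 CPM. UGT74E2 held 0, 21.9 and 25.98 against 183, 240 and 152 CPM in the TSS window and 30.4, 19.5 and 17.1 against 99.5, 140 and 69.1 CPM in the body. Both windows of SRO3 likewise did not overlap between groups, with at most 28.4 CPM in any mock TSS window and at least 84.7 CPM in any induced one. These mock TSS windows held 1 read at most in S2P mock 1 and S2P mock 2.

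**Figure D1:**
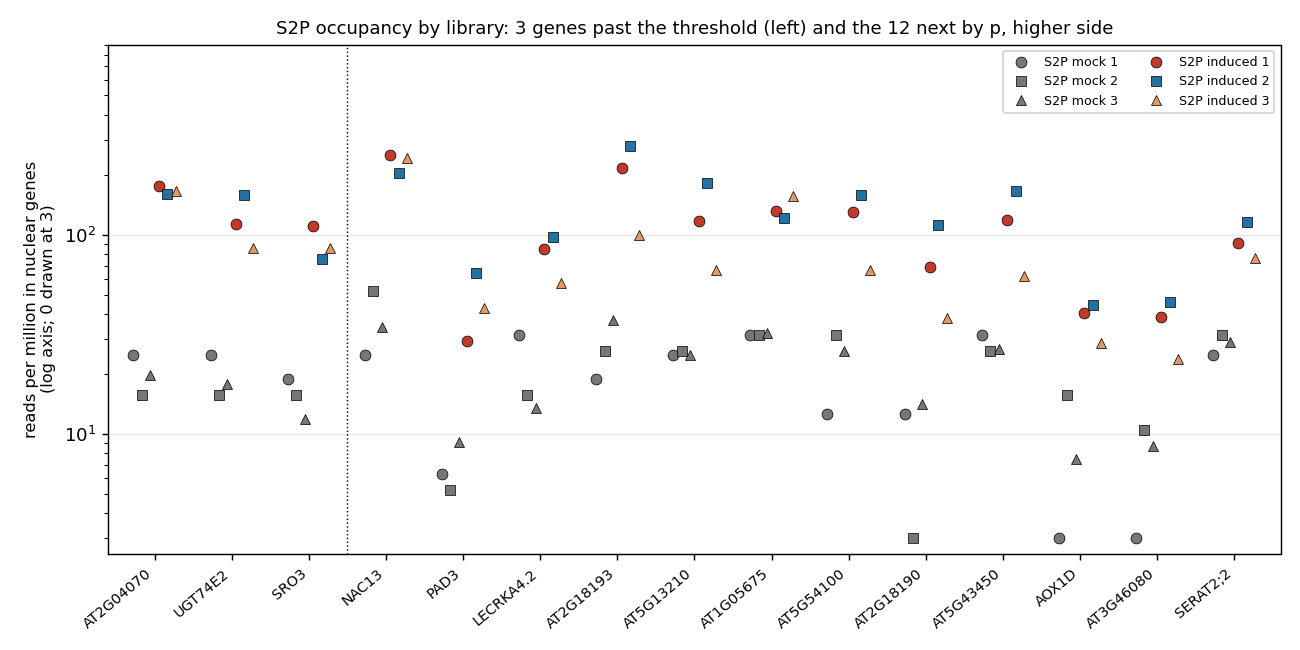
CPM over nuclear genes (log axis, 0 drawn at 3) for the 3 genes past the threshold, left of the dotted line, and the 12 next by p on the higher side, one point per library. Grey points are mock libraries and coloured points induced ones. For each of the 15 genes the induced points lie above the mock points, S2P induced 2 (blue squares) included. The genes were chosen by p in these same libraries, and several mock points rest on 3 reads or fewer.

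The next 12 genes by p on the higher side did not pass (adjusted p from 0.0994 to 0.126 in edgeR). Of the 15 leading genes 6 belong to the mitochondrial retrograde list, as do 22 of all 18798 tested genes. That list was drawn up with earlier results of these data known, so this count is not independent evidence. NAC13 (AT1G32870), a membrane-bound factor of the retrograde pathway, held 25.01, 52.1 and 34.3 CPM in mock and 251, 205 and 242 CPM in induced libraries. Its log2 fold change was 2.86 (SE 0.48). AOX1D (AT1G32350), one of the alternative oxidases that bypass part of the respiratory chain, held 0, 15.6 and 7.49 against 40.6, 44.1 and 28.5 CPM. AT1G05675, the neighbour of UGT74E2, held 31.3, 31.2 and 31.9 against 132, 122 and 157 CPM, and AT5G54100 (stomatin-like protein 2) 12.5, 31.2 and 26.01 against 130, 159 and 66.5 CPM. Others of the 12 act in defence and sulfur metabolism. PAD3 (AT3G26830), which completes the antimicrobial compound camalexin, held 6.25, 5.21 and 9.07 against 29.1, 64.0 and 42.8 CPM. LECRKA4.2 (AT5G01550), a lectin receptor kinase, held 31.3, 15.6 and 13.4 against 84.8, 97.7 and 57.0 CPM. SERAT2;2 (AT3G13110), a serine acetyltransferase of cysteine synthesis, held 25.01, 31.2 and 28.8 against 90.9, 116 and 76.0 CPM. The neighbours AT2G18193 and AT2G18190 had log2 fold changes of 2.89 (SE 0.50) and 2.85 (SE 0.51), and AT5G13210, AT5G43450 and AT3G46080 lay between 2.26 and 2.46. In S2P mock 1 and S2P mock 2, PAD3 rested on 1 and 1 reads and AOX1D on 0 and 3. AT2G18190 rested there on 2 and 0 reads and AT3G46080 on 0 and 2. These genes reached the filter on low counts through the induced libraries, so their lack of overlap is a description.

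Without S2P induced 2, AT2G04070, UGT74E2, SRO3, NAC13, LECRKA4.2, AT2G18193, AT5G13210, AT1G05675, AT5G54100, AT5G43450 and SERAT2;2 all passed, with adjusted p from 0.000497 to 0.0179 in edgeR. The other 4 of the 15 genes were too low in reads to be tested in that fit. All 15 had been chosen by p in libraries that include those of this fit. The tested ones held at most 52.1 CPM in any mock library and reached the filter on low counts through the induced libraries. Of all 6849 genes tested in that fit, 413 (6.03%) passed on the higher side. That these genes passed is therefore a description and no separate evidence.

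With all 6 libraries the mitochondrial retrograde list had the highest median of the lists, just above the 1.84 of the MATE cluster, and without S2P induced 2 the MATE cluster was higher (2.09 against 1.82). Of its 23 genes 22 were tested, 20 had a positive log2 fold change and the median was 1.91, against 52.98% positive and a median of 0.04 over all 18798 genes. An unadjusted p under 0.05 on the higher side was reached by 18 members, or 81.8%, against 5.19% of all genes. The groups did not overlap for 11 members, higher in induced libraries, against 3.41% of all genes. AT2G04070 and UGT74E2 passed the adjusted threshold. The summed level of the list was 763, 890 and 813 CPM in mock and 2822, 3088 and 1792 CPM in induced libraries. All 3 induced libraries, S2P induced 2 foremost, were above all mock libraries. The median stayed between 1.66 and 2.20 over the 19 alternatives. Without S2P induced 2, 13 members had enough reads to be tested. Of these, 9 passed on the higher side, where 413 of 6849 tested genes (6.03%) passed. The list was drawn up with earlier results of these data known, so its count is not independent evidence of a direction.

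Members of this list were chosen for description after their values were seen, where they were not among the leading genes. BCS1 (AT3G50930), which encodes an outer-membrane AAA protein of stressed mitochondria, held 31.3, 36.5 and 67.8 CPM in mock and 154, 183 and 90.3 CPM in induced libraries. NDB4 (AT2G20800), an external alternative NAD(P)H dehydrogenase, held 6.25, 36.5 and 26.4 against 144, 106 and 52.3 CPM. AOX1A (AT3G22370), the main alternative oxidase gene, held 119, 88.5 and 94.6 against 261, 343 and 90.3 CPM. S2P induced 1 and S2P induced 2 were thus well above mock for AOX1A, while S2P induced 3 lay within the mock range. NAC017 (AT1G34190), the regulator of the pathway, held 56.3, 83.3 and 85.9 against 81.8, 160 and 71.3 CPM and its groups overlapped. The 2 members with negative values, SRO5 (-0.22, SE 0.44) and AR192 (-0.32, SE 0.47), had 0 to 37.4 CPM in every library.

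Lists of detoxification genes were higher in part. They share members with the retrograde list: AT2G04070 is also in the MATE cluster and UGT74E2 is also among the UDP-glycosyltransferases. Among the 7 genes of the MATE cluster around DTX1, 5 were tested. On the higher side 4 had an unadjusted p under 0.05, or 80% against 5.19% of all genes. DTX1 held 50.02, 36.5 and 52.0 CPM in mock and 168, 229 and 47.5 CPM in induced libraries, so S2P induced 3 stayed at the mock level. AT2G04050 held 18.8, 57.3 and 34.7 against 204, 271 and 95.0 CPM, with no overlap. Of 26 tested tau and phi glutathione transferases, enzymes that join glutathione to foreign compounds, 21 were positive with a median of 0.80. On the higher side 11 had an unadjusted p under 0.05, or 42.3% against 5.19% of all genes. GSTF7 (AT1G02920) held 50.02, 20.8 and 22.1 against 98.1, 89.9 and 57.0 CPM, with no overlap between groups. None of the 26 passed the adjusted threshold with all libraries. Of 41 tested UDP-glycosyltransferases 27 were positive (median 0.44), and UGT74E2 alone passed. CYP81D8 (AT4G37370), a cytochrome P450 of xenobiotic responses, held 37.5, 20.8 and 56.4 against 179, 248 and 133 CPM (log2 fold change 2.33, SE 0.47, adjusted p = 0.136 in edgeR), whereas the median of the 7 tested CYP81D genes was 0.04.

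Proteasome genes had small positive values nearly throughout. Of 50 tested subunits of the 26S proteasome, the complex that degrades ubiquitin-tagged proteins, 49 had a positive log2 fold change, with a median of 0.60 against 0.04 for all genes. None passed the adjusted threshold, 13 had an unadjusted p under 0.05 (26% against 5.19%) and 11 did not overlap between groups (22.0% against 3.41%). Fold changes differed with the level of the gene. In the highest of 4 equal groups of genes by mean level, 70.2% were positive, with a median of 0.26. There 9.77% had an unadjusted p under 0.05 on the higher side and 5.83% did not overlap. The part of level in the proteasome values was not tested. The summed level was 2963, 2624 and 2904 CPM in mock and 4080, 4308 and 3502 CPM in induced libraries, with no overlap. PAE2 (AT3G14290), a core particle subunit, held 62.5, 57.3 and 48.5 against 150, 94.2 and 162 CPM. RPT5A (AT3G05530), an ATPase of the regulatory particle, held 31.3, 31.2 and 41.0 against 61.2, 102 and 57.0 CPM. The median ran from 0.28 to 0.67 over the alternatives; at 0.28, without S2P induced 2, 30 subunits were tested and 2 passed on the higher side, where 6.03% of all tested genes passed.

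**Figure D2:**
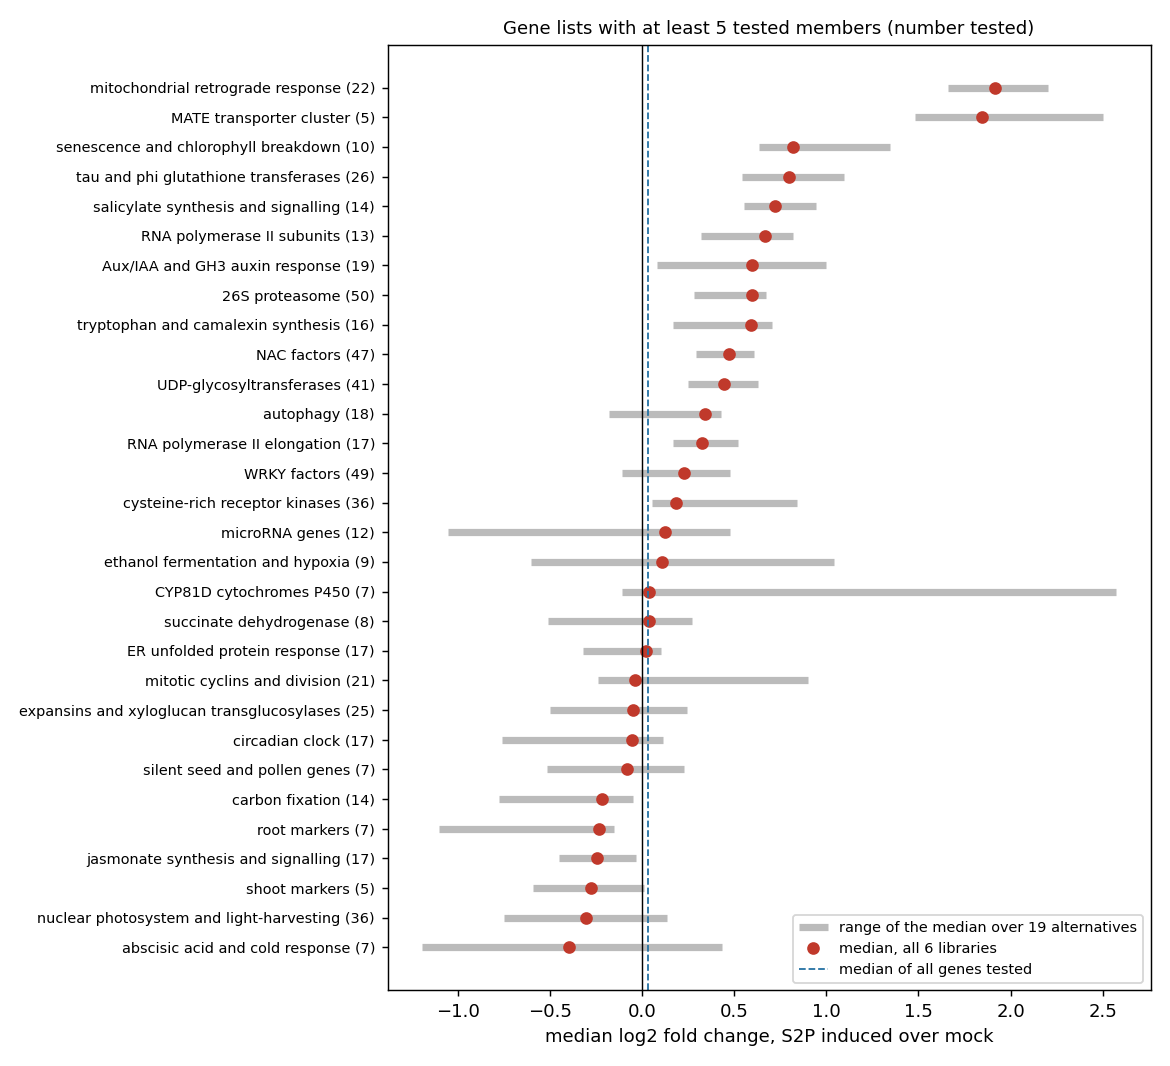
Median log2 fold change of S2P occupancy, induced over mock, for the 30 gene lists with at least 5 tested members (number tested in brackets). Red points are medians with all 6 libraries, grey bars the lowest to highest median over 19 alternatives, and the dashed line the median of all genes, 0.04. With all 6 libraries the mitochondrial retrograde list, at 1.91, is the highest, and the grey bar of the proteasome list stays right of 0.

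Stress regulators were mixed. Of 47 tested NAC factors 31 were positive (median 0.47). On the higher side 13 had an unadjusted p under 0.05, or 27.7% against 5.19% of all genes. Beside NAC13 these included NAC050 (AT3G10480), with 12.5, 46.9 and 31.5 CPM in mock and 82.4, 86.5 and 99.8 CPM in induced libraries. Of 49 tested WRKY factors 36 were positive with a median of 0.23. Without S2P induced 2 this median was -0.11, near the -0.13 of all genes in that fit. WRKY6 (AT1G62300), a factor of senescence and phosphate response, held 56.3, 93.7 and 102 against 351, 293 and 299 CPM. Its induced libraries stood together and above mock, yet its adjusted p was 0.227 in edgeR. WRKY45 and WRKY75, linked to phosphate supply and leaf senescence, had log2 fold changes of 1.61 (SE 0.38) and 1.40 (SE 0.39). Neither family had a member past the threshold with all libraries.

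Salicylate genes, which act in defence against biotrophic pathogens, had 13 of 14 tested members positive and a median of 0.72. An unadjusted p under 0.05 on the higher side was reached by 6 members, or 42.9% against 5.19% of all genes. None passed after adjustment. EDS1 (AT3G48090), a hub of immune signalling, held 56.3, 41.7 and 44.5 CPM in mock and 125, 83.9 and 124 CPM in induced libraries. WRKY70 (AT3G56400) held 62.5, 52.1 and 78.4 against 354, 195 and 80.8 CPM, so S2P induced 3 barely exceeded S2P mock 3. Tryptophan and camalexin genes had 14 of 16 positive (median 0.59), led by PAD3, and cysteine-rich receptor kinases 23 of 36 (median 0.19), led by CRK37 with 0, 10.4 and 15.8 against 45.4, 48.4 and 42.8 CPM. Jasmonate genes had 7 of 17 positive and a median of -0.25. MYC2 (AT1G32640), the master factor of jasmonate responses, held 100, 83.3 and 186 against 38.2, 78.7 and 23.8 CPM.

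Genes of the transcription machinery had small positive values with no call, beside a median of 0.04 for all genes and of 0.26 for the highest of 4 equal groups of genes by mean level. All 13 tested RNA polymerase II subunit genes were positive, with a median of 0.67. NRPB6A (AT5G51940) held 12.5, 10.4 and 17.3 CPM in mock and 33.9, 39.8 and 52.3 CPM in induced libraries, and was the one subunit gene whose groups did not overlap. The gene of the largest subunit, NRPB1 (AT4G35800), held 219, 276 and 183 against 257, 370 and 323 CPM. Elongation factor genes had 16 of 17 positive with a median of 0.32, which was 0.17 without S2P induced 2. VIP5 (AT1G61040), of the PAF1 complex, held 43.8, 46.9 and 35.1 against 56.9, 74.4 and 61.8 CPM.

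On the lower side no gene passed. The leading 12 by p had log2 fold changes between -1.61 and -2.04 and adjusted p from 0.162 to 0.265. AT2G34510 held 56.3, 46.9 and 76.1 CPM in mock and 16.96, 20.8 and 9.50 CPM in induced libraries. MIR167d (AT1G31173), the locus of a microRNA that targets auxin response factors, held 75.0, 52.1 and 39.0 against 13.3, 10.4 and 0 CPM. AMI1 (AT1G08980), an amidase that can form auxin from indole-3-acetamide, held 100, 78.1 and 91.8 against 15.7, 34.6 and 0 CPM. For each of these the induced libraries lay below every mock library, S2P induced 2 included. RRTF1 (AT4G34410), a redox-responsive ERF factor, held 31.3, 15.6 and 45.7 against 7.87, 12.1 and 0 CPM. XTH18 (AT4G30280), a cell-wall xyloglucan transglucosylase, held 62.5, 20.8 and 118 against 12.1, 26.8 and 9.50 CPM and overlapped between groups. Without symbols in the RefSeq table, AT4G13572, AT2G26215, AT4G18220, AT5G11070, AT1G77640, AT1G02810 and AT2G25360 had at most 55.6 CPM in any library. The values of 0 in S2P induced 3 allow up to 14.3 CPM, the level of 3 reads there, for counting error only. Mock values were also near the floor. In S2P mock 1 and S2P mock 2, RRTF1 and AT5G11070 rested on 5 and 3 reads, AT1G02810 on 7 and 3 and AT2G25360 on 4 and 5. Some of these genes, RRTF1, AT4G13572, AT5G11070 and AT1G77640 among them, reached the filter on low counts through the mock libraries alone.

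**Figure D3:**
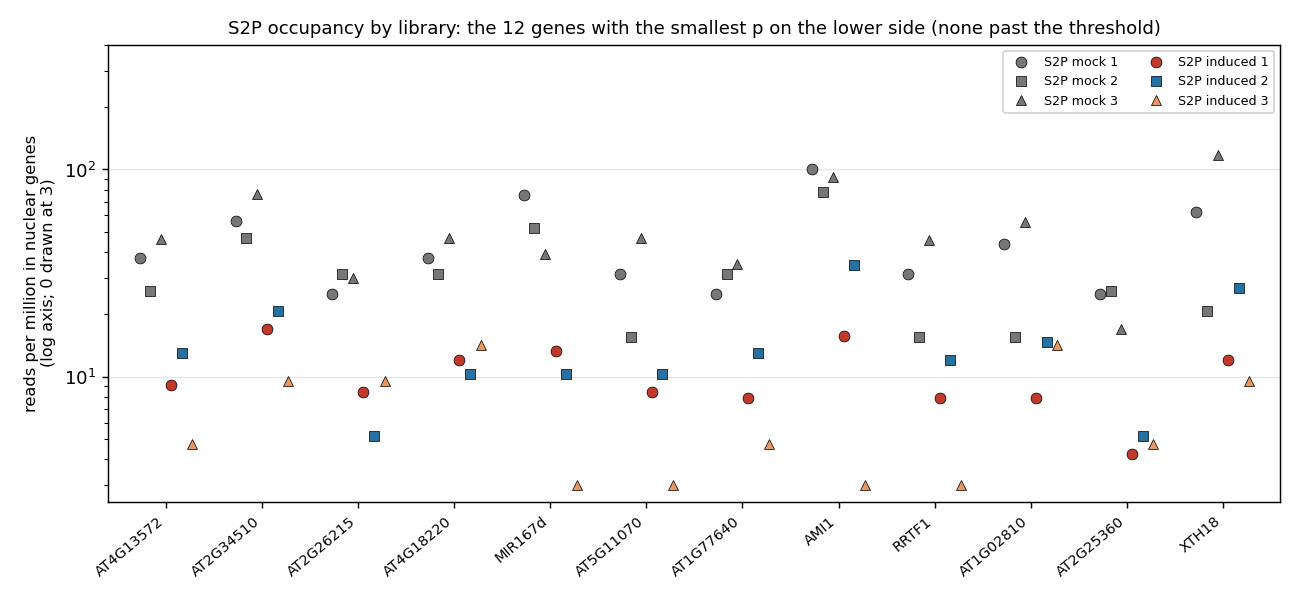
CPM over nuclear genes (log axis, 0 drawn at 3) for the 12 leading genes by p on the lower side, one point per library. None passed the threshold, and all 12 were chosen by p in these same libraries. Of all tested genes, 9.31% had lower values in induced libraries with no overlap between groups. Induced points (coloured) lie below the mock points (grey) for 11 of the genes; for XTH18, S2P induced 2 at 26.8 CPM lies above S2P mock 2 at 20.8 CPM.

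Photosynthesis genes had mostly negative values, none past the threshold. Of 36 tested nuclear photosystem and light-harvesting genes 10 were positive, and the median was -0.31. Their summed level was 4051, 1213 and 1762 CPM in mock and 1828, 1715 and 1174 CPM in induced libraries. S2P mock 1 alone stood far above the rest, and the other mock libraries lay among the induced ones. Over the alternatives the median ran from -0.75 to 0.13, so its direction depended on the libraries used. Of 14 tested carbon fixation genes 3 were positive (median -0.21). GAPB (AT1G42970), a Calvin cycle dehydrogenase, held 62.5, 52.1 and 52.0 against 23.6, 25.9 and 9.50 CPM, with no overlap between groups. Cold and abscisic acid genes were tested for 7 members (median -0.40), of which ERD10 (AT1G20450), a dehydrin, held 56.3, 41.7 and 99.7 against 19.4, 30.3 and 23.8 CPM. The circadian clock list had 8 of 17 positive and a median of -0.06.

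**Figure D4:**
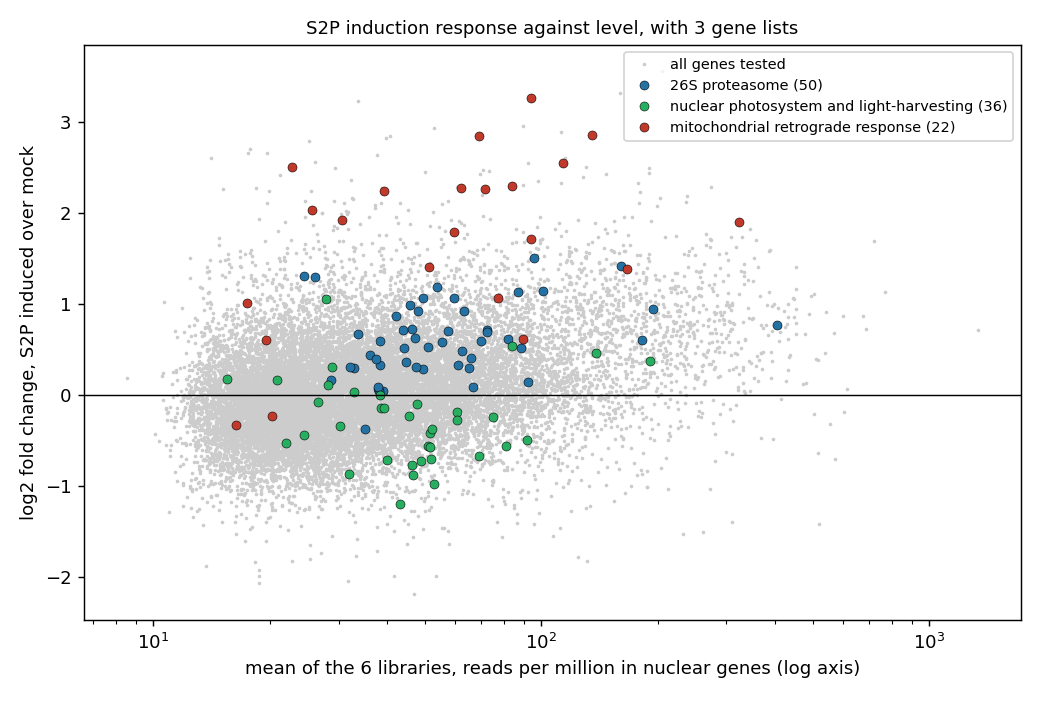
Log2 fold change of S2P occupancy, induced over mock, against the mean of the 6 libraries in CPM (log axis), for all 18798 tested genes (light grey) and 3 lists. Mitochondrial retrograde genes (red, 22) reach from -0.32 to 3.27, proteasome genes (blue, 50) lie mostly just above 0, and photosystem genes (green, 36) mostly below it.

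Without S2P induced 2, edgeR called 413 of 6849 tested genes higher (6.03%) and 112 lower (1.64%). The higher genes included AT2G04070, UGT74E2, SRO3, NAC13 and SERAT2;2, which were high in all 3 induced libraries, and others that were much higher in S2P induced 1 and S2P induced 3 than in S2P induced 2. SRO2 (AT1G23550), another RCD1 relative, held 31.3, 52.1 and 31.5 CPM in mock and 487, 133 and 494 CPM in induced libraries. With 6 libraries its log2 fold change was 3.57 (SE 0.68, adjusted p = 0.136), and without S2P induced 2 it was 3.75 with an adjusted p of 0.000333. ACS2 (AT1G01480), an enzyme of ethylene synthesis, held 56.3, 93.7 and 52.0 against 453, 92.5 and 390 CPM. GSTU22 (AT1G78340) held 31.3, 20.8 and 21.7 against 239, 44.1 and 181 CPM, and GSTU11 (AT1G69930) 31.3, 41.7 and 37.1 against 228, 67.4 and 285 CPM. In all of these S2P induced 2 was the lowest induced library. For ACS2 it lay within the mock range, and for the other 3 it lay above every mock library. AT5G52760 (37.5, 36.5 and 30.0 against 405, 81.3 and 366 CPM), AT2G32140, CRK38 and AT1G71520 also had their lowest induced value in S2P induced 2.

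Other genes had the same order. XTH30 (AT1G32170) held 119, 115 and 113 CPM in mock and 449, 133 and 404 CPM in induced libraries. GTB1 (AT1G65440), the SPT6 relative that travels with elongating polymerase, held 250, 193 and 174 against 494, 231 and 618 CPM. SPT42 (AT5G63670), of the SPT4/SPT5 elongation factor, held 119, 57.3 and 33.9 against 182, 44.1 and 271 CPM, and NRPB4 (AT5G09920) 119, 41.7 and 47.7 against 194, 61.4 and 242 CPM. For SPT42, S2P induced 2 lay below S2P mock 1 and S2P mock 2. The share of reads outside genes was 28.2% and 33.4% in S2P induced 1 and S2P induced 3 and 20.3% in S2P induced 2. In S2P mock 1 to 3 it was 25.5%, 29.4% and 24.5%. With that share as a covariate edgeR called 162 genes higher and 42 lower, 86 of them also among the 525 called without S2P induced 2; the part of this share in the results was not tested further.

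Reads of some of these genes lay mostly in 1 window. AT5G52760 held 170, 87.5 and 111 CPM in mock and 1413, 289 and 1304 CPM in induced libraries in the TSS window, but at most 46.2 CPM in any gene body window. GSTU22 held 861, 148 and 643 CPM in the induced TSS windows and at most 11.8 CPM in the body. SRO2 showed the opposite, with 613, 137 and 628 CPM in the induced gene body windows against 64.7, 113 and 119 CPM at the TSS. Where each window begins and ends is not stated, so no density per base is drawn from them.

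Among the 112 genes called lower without S2P induced 2, MYC2, AMI1, XTH18 and ERD10 recurred from the lists above. OPT6 (AT4G27730), an oligopeptide transporter, held 62.5, 67.7 and 94.2 CPM in mock and 23.6, 40.6 and 23.8 CPM in induced libraries. BT1 (AT5G63160), a BTB and TAZ domain protein, held 213, 88.5 and 294 against 48.5, 80.4 and 23.8 CPM. GS2 (AT5G35630), the plastid glutamine synthetase, held 113, 62.5 and 69.0 against 24.2, 45.0 and 23.8 CPM. For these 3 genes all induced libraries were below all mock libraries. FKF1 (AT1G68050), a blue-light receptor of the clock and flowering pathway, held 75.0, 46.9 and 96.2 against 24.8, 53.6 and 4.75 CPM, so S2P induced 2 exceeded S2P mock 2.

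**Figure D5:**
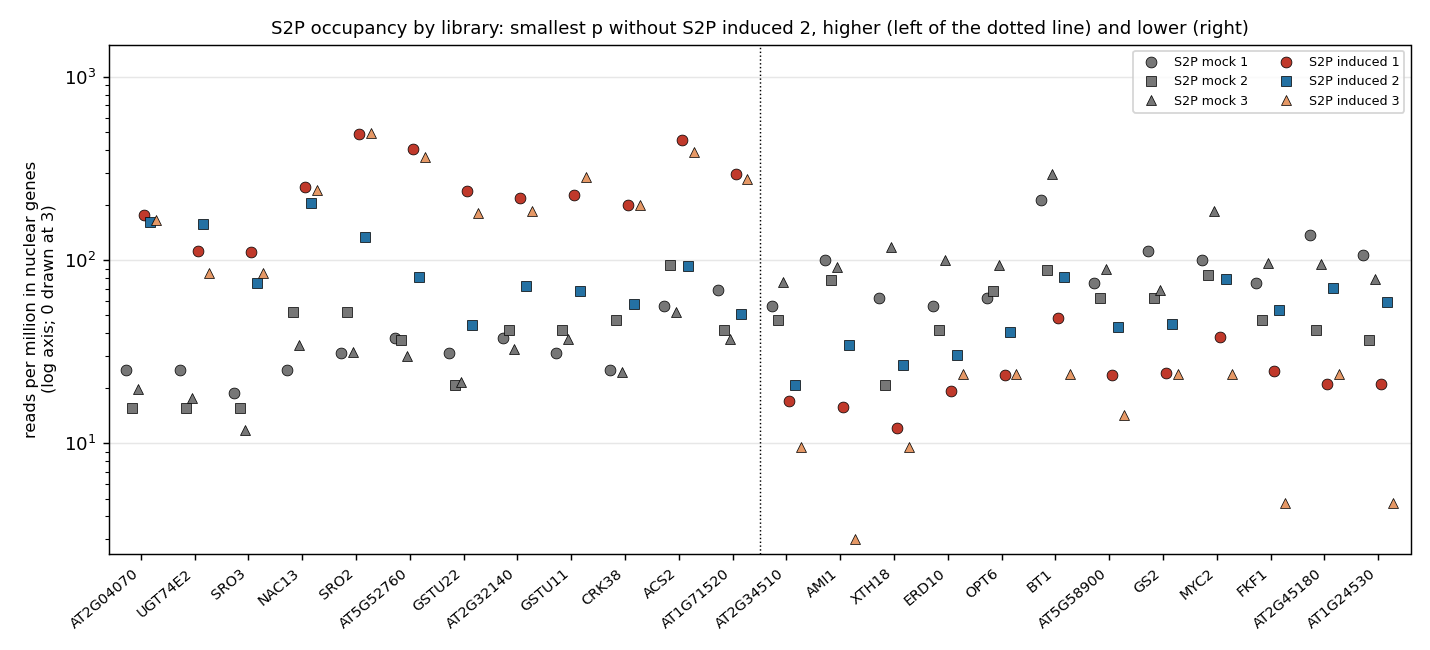
CPM over nuclear genes (log axis, 0 drawn at 3) for the 12 leading genes by p in each direction when S2P induced 2 is left out, higher ones left of the dotted line, one point per library. From SRO2 to AT1G71520 the S2P induced 2 point (blue square) lies well below S2P induced 1 (red) and S2P induced 3 (orange), while for AT2G04070, UGT74E2, SRO3 and NAC13 the 3 induced libraries lie together.

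The 6 libraries made with an antibody against serine 5 phosphorylated (S5P) polymerase share no library with the S2P comparison, although nothing in the labels says whether the plants were separate. Their labels name GFP-TFIISmut, a mutated form, as the induced protein. Of the 413 genes called higher with S2P without induced 2, 405 had a positive S5P log2 fold change (98.1%, median 1.39), against 49.3% and a median of -0.01 over 21954 genes tested with S5P. Of the 112 called lower, 4 were positive (3.57%, median -0.86). None of them passed the threshold with S5P, where 0 of all 21954 tested genes passed. The S5P values rested in part on S5P induced 2, which held 115868 reads in nuclear genes. Without it, a setting chosen after seeing the data, 323 of the 413 were positive (78.2%, median 0.40). Over 26076 genes 45.3% were positive, with a median of -0.06. Of the 413, 47 passed the threshold, where 302 of the 26076 passed. Of the 112, 8 were positive (7.14%, median -0.73) and 3 passed. For AT2G04070 the S5P levels were 22.3, 33.1 and 12.5 CPM in mock and 213, 86.3 and 195 CPM in induced libraries, and for NAC13 22.3, 60.6 and 25.05 against 263, 155 and 221 CPM. UGT74E2 held 23.9, 30.3 and 17.2 CPM in S5P mock and 200, 8.63 and 197 CPM in S5P induced libraries, so S5P induced 2, with 1 read, lay below every mock library. GTB1 held 216, 215 and 173 CPM in S5P mock against 318, 1372 and 260 CPM, so there the same library was by far the highest. A test of the difference between the antibodies, S5P response minus S2P response, called 0 of 23793 genes (0%) in edgeR and none in DESeq2 or limma voom. In edgeR 151 genes had an unadjusted p under 0.05. For AT2G04070 the difference was -0.11 (SE 0.65), for UGT74E2 -0.04 (SE 0.79) and for SRO3 0.01 (SE 0.60) on the log2 scale. No gene can therefore be called particular to S2P, and standard errors of 0.60 to 0.79 leave wide intervals around these differences.

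By the correlation of log2 (CPM + 10) over the 6 libraries, the 5 genes most like the mean of the 3 called genes were AT4G38060, AT1G48460, GAPC1, AT1G05675 and AT5G17760, with r from 0.975 to 0.991. GAPC1 (AT3G04120), a cytosolic glycolytic dehydrogenase, held 169, 187 and 169 CPM in mock and 434, 433 and 342 CPM in induced libraries. Its log2 fold change of 1.40 (SE 0.52) did not pass (adjusted p = 0.542 in edgeR). AT4G38060 held 18.8, 15.6 and 17.7 against 29.7, 31.1 and 28.5 CPM, a smaller step of the same shape. These r values are descriptions with no test.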

How the data were processed

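The authors deposited raw read counts per gene for each library over whole genes, a TSS window and a gene body window. Per the submitters' processing notes, Trimmomatic, HTSeq and genome build TAIR10 were used; the aligner, strand use and window bounds are not stated there. Overlapping, antisense and near-identical genes may therefore share or lose reads. The 5 counter lines that name no gene (74.7% to 96.7% of reads were not aligned) and 279 organelle genes were left out. Symbols came from a RefSeq table of TAIR10.1, matched for 32835 genes. The test was edgeR 4.0.16 (R 4.3.3) quasi-likelihood with TMM scaling, low counts removed by filterByExpr (minimum count 10) and Benjamini-Hochberg adjustment at 0.05; printed CPM carry no TMM factor. The filter kept 18798 genes. DESeq2 1.42.0 and limma 3.58.1 served as alternatives. Labels do not say that replicates were separate cultures, so p-values measure spread that may be technical. No molecular identifiers are mentioned, so reads may not be independent molecules and the floor of 3 reads covers counting error only. The text names TFIIS, the called genes, the 12 next by p per direction, up to 4 members with the smallest p of each of 32 lists and the 5 genes most like the called ones; the genes with the smallest p without S2P induced 2 and a few others were added after their values were seen. The lists and genes were chosen with earlier results of these data known.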

Additional observations from a re-analysis of the deposited data

How the results depend on the processing

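The count of 3 calls depended on the settings. With organelle genes kept in it was 0, as it was with upper quartile or RLE factors and with the replicate block, and limma voom gave 1. It was 8 with total counts, 15 with a mean count of at least 50, 42 with DESeq2, 72 with no filter on low counts, 204 with the share of reads outside genes as covariate and 882 with limma voom quality weights, which gave S2P induced 2 the lowest weight. Robust quasi-likelihood gave 3 and thinning every library to 159951 reads gave 4. Leaving out 1 library gave 0 to 525 calls. The 3 genes were among the calls of each setting that gave 8 or more. The cause of these changes was not tested. The replicate block gave 0 calls; same-numbered mock and induced libraries had correlations of deviations of 0.118, -0.153 and -0.316, 2 of 6 libraries correlated best with their own number, and the numbers were not taken as pairs. The median of all genes shifted by -0.16 with total counts, -0.13 with upper quartile factors and -0.16 without S2P induced 2. The TFIIS value ran from 0.49 to 1.298 and never passed. The difference between antibodies gave 0 calls in all 18 alternatives. For the 72 genes described in the text other than TFIIS, 994 alternative values kept their side of the threshold, 222 passed newly, 26 no longer passed and 2 reversed: leaving out 1 library, NAC017 ran from -0.01329 (without S2P induced 2) to 0.8196 and SRO5 from -0.3871 to 0.002404 (without S2P induced 3). Of the medians of the 32 lists 524 moved by less than the spread between libraries and 76 by more.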

Other observations

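Of 1083 tested pseudogenes 234 (21.6%) had a positive S2P log2 fold change, with a median of -0.36, against a median of 0.06 for 17459 protein-coding genes. Summed pseudogene levels were 48377, 65662 and 43593 CPM in mock and 34054, 31629 and 47010 CPM in induced libraries, so S2P induced 3 overlapped with mock. Of 16 tested tRNA genes, which are transcribed by another polymerase, 15 were positive (median 1.14) and none passed. Their summed levels were 2126, 1359 and 1479 CPM in mock and 2010, 1115 and 3636 CPM in induced libraries, with the highest value in S2P induced 3.

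Fold changes differed with the level of the gene. When the tested genes were ordered by mean level over the 6 libraries and split into 4 groups of like size, the median log2 fold change was -0.12 in the lowest group, -0.05 and 0.08 in the next and 0.26 in the highest. In the highest group 459 genes had an unadjusted p under 0.05 on the higher side and 54 on the lower side, while in the lowest these were 114 and 136. Without S2P induced 2 the median of the highest group was -0.04 and that of the third -0.31, beside -0.13 for all genes tested. In that fit 0 genes of the lowest group and 33 of the second were tested.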
